A study of Mus musculus with 9 samples.

Results

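The genes described here are the mouse zinc finger genes that lie outside genomic clusters. They are the protein-coding genes named Zfp and a number, without Zfp36 and its relatives, that have at most 1 other such gene on the same chromosome with its midpoint within 250 kb. The rule selected 184 genes of the 366 with such a name and of 24187 genes in all. Of these 184 genes 135 had no other such gene in that window and 49 had 1. The remaining 182 zinc finger genes had 2 to 16 such neighbours and are called clustered genes in what follows.

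Bone-marrow-derived macrophages are obtained by growing marrow cells with macrophage colony-stimulating factor (M-CSF), here at 10 ng/ml for 6 days, from C57BL/6 mice in postnatal week 8. The control cells then stayed for 6 h in complete medium. The LPS group received 500 ng/ml lipopolysaccharide, a bacterial cell wall component that activates Toll-like receptor signalling, for the same 6 h. The third group received 500 ng/ml LPS with 50 µM NCT503, an inhibitor of PHGDH, the first enzyme of serine synthesis from glucose. Each group had 3 RNA-seq libraries, and the labels do not say whether these came from separate animals or cultures, so that every p-value given here measures the spread between libraries alone.

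A C2H2 zinc finger is a short fold held by a zinc ion, and proteins with arrays of such fingers mostly bind DNA in a sequence-specific way, although some bind RNA or other proteins. Many mammalian zinc finger genes arose by tandem duplication and sit in clusters, and many of the proteins made from clusters carry a KRAB domain that recruits the corepressor Trim28 and silencing of transposable elements. Genes outside clusters include older, conserved regulators with individual functions, among them corepressor subunits, RNA-binding proteins and factors for ribosome quality control.

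Reads per library over the 21434 genes in both deposited tables ranged from 20295862 to 23599685. Control libraries had size factors of 1.25 to 1.46, LPS libraries 0.733 to 0.868 and those with NCT503 0.924 to 0.981, so the scaling separated the groups although the totals did not. Summed macrophage markers (8 genes, none at 0 in all libraries) took 18126 to 19532 CPM (counts scaled by library totals) in control, 16406 to 17474 with LPS and 9111 to 11963 when NCT503 was added. The members of that sum differed. Lyz2 had 213090 to 253641 normalized reads with LPS and 92157 to 136761 when NCT503 was added, Cd14 had 75244 to 90464 and 13156 to 22954, and Fcgr1 had 18091 to 23142 and 2740 to 3385. Adgre1 (38873 to 55962 and 31936 to 37210), Itgam (2927 to 4350 and 936 to 2835) and Mertk (2156 to 3032 and 869 to 1831) were also lower with NCT503, without overlap. The ranges of Csf1r (34631 to 39421 and 34735 to 45389) and Cd68 (19763 to 25401 and 21648 to 24096) overlapped. Summed neutrophil markers (4 of 5 listed genes were in both tables) took 159 to 291, 46.5 to 101 and 6.50 to 15.5 CPM. The 4 stromal markers took 239 to 1213, 472 to 930 and 482 to 1335, and the 2 eosinophil markers took 18.3 to 20.6, 15.4 to 24.3 and 0.0937 to 0.296. The part of these differences in the results was not tested, and in bulk RNA fewer cells of a type and less RNA per cell cannot be told apart.

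The deposited tables assign 141 of the 184 genes to the zf-C2H2 family of transcription factors and 2, Zfp131 and Zfp651, to the ZBTB family. The other 41 have no such assignment. The 184 genes lie on 20 chromosomes, and 20 of them are on chromosome 7. Of the 184 genes 178 were in both tables.

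Promoters of 143 of the 184 genes were matched in RefSeq on GRCm38.p6, as the 250 bases before and 50 bases after the most upstream start. These 300-base windows held a median of 17 CpG dinucleotides, against 11 in the clustered genes (161 matched) and 19 in all protein-coding genes of the tables (12125 matched). A GC box (GGGCGG, either strand) was present in 52.4% of the promoters, in 38.5% of those of clustered genes and in 59.7% of all. A CCAAT box (CCAAT, either strand) was present in 44.8%, 53.4% and 38.3%, and the letters CCGGAAG of an ETS site in 25.2%, 19.3% and 15.7%. A kappaB pattern (GGGA, any 2 bases, then TTCC, either strand) was found in 1.40% of the promoters and in 1.47% of all, and an interferon-response pattern (GAAA, any 2 bases, then GAAA, either strand) in 3.50% and 3.24%. An E-box (CACGTG) was present in 6.29% and 9.48%, and a TATA pattern (TATAAA, either strand) in 7.69% and 8.10%.

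The next 5 promoters are shown because the genes they belong to had some of the largest differences described further on. Zfp800 and Zfp281 were higher with LPS, Zfp788 and Zfp770 were lower with LPS, and Zfp710 was lower when NCT503 was added. Capitals mark GC boxes and CCAAT boxes on either strand, and none of the other 5 patterns searched was found in these windows. Each line runs 5′ to 3′ on the strand of its gene. The Zfp788 window lies inside the deposited coordinates of that gene, given further on, because its RefSeq start lies downstream of the deposited start.
Zfp800 promoter (chr6:28397956-28398255, minus strand): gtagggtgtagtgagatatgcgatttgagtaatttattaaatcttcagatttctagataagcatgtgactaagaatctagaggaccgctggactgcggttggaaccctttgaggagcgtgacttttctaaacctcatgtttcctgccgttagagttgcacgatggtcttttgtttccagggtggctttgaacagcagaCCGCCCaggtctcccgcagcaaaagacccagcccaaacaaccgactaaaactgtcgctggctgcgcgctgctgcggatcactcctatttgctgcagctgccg
Zfp281 promoter (chr1:136624651-136624950, plus strand): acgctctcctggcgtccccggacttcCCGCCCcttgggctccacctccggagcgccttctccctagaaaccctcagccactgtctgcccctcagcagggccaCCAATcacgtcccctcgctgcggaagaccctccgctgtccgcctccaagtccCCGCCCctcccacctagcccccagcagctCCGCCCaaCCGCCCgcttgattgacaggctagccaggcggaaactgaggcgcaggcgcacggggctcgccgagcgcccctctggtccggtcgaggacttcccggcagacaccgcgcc
Zfp788 promoter (chr7:41633281-41633580, plus strand): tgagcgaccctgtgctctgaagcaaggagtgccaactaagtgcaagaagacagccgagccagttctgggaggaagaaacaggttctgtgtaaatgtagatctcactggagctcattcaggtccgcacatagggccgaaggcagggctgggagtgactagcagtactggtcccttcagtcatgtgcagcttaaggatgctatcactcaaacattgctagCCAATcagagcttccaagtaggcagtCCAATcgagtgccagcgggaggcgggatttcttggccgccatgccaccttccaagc
Zfp770 promoter (chr2:114201383-114201682, minus strand): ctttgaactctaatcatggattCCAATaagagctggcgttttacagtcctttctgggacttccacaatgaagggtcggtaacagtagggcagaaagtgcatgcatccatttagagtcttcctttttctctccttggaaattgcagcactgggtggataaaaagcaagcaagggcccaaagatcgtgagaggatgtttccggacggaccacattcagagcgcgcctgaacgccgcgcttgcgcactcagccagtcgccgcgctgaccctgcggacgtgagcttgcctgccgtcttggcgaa
Zfp710 promoter (chr7:80024564-80024863, plus strand): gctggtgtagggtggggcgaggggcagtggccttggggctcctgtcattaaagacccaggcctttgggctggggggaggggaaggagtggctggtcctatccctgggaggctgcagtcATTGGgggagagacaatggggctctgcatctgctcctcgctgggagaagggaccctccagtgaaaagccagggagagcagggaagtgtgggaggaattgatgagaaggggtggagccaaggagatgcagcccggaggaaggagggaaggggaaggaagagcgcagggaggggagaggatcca

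The Zfp281 window held 4 GC boxes, 1 CCAAT box and 27 CpG, whereas the Zfp710 window held 1 CCAAT box and 4 CpG. Among genes called higher with LPS that had a matched promoter (20), the median was 23.5 CpG, and among those called lower (54) it was 14. Neither the kappaB nor the interferon-response pattern was found in the 20 promoters of the genes called higher with LPS. These patterns were in 1.47% and 3.24% of all promoters, so 20 windows are too few to show a lower share. A match or its absence describes the letters of these windows only.

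Levels differed widely between these genes. On the scale of normalized reads per kb of gene length, averaged over the 9 libraries, levels ran from 0.0633 to 1225 with a median of 18.0 and quartiles of 4.69 and 59.5. A mean of at least 100 normalized reads was reached by 89 of the 178 genes in both tables, and 32 had a mean under 10. The 8 genes with the highest level per kb were Zfp385a (1225), Zfp703 (1099), Zfp513 (984), Zfp622 (729), Zfp710 (536), Zfp598 (409), Zfp516 (333) and Zfp706 (308). Zfp385a encodes an RNA-binding protein first described in blood cells, Zfp703 a corepressor known from luminal breast cancer, Zfp622 a factor for maturation of the large ribosomal subunit and Zfp598 the ubiquitin ligase that marks collided ribosomes.

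Together the 178 genes took a smaller part of the reads after LPS. Their summed CPM were 3788, 3613 and 3311 in control (3570 ± 241, SD, n = 3), 2494, 2270 and 2204 in LPS (2323 ± 152) and 2619, 2582 and 2666 in LPS with NCT503 (2622 ± 42.3). The 3 groups did not overlap, with control highest and LPS lowest. A lower CPM with LPS was not particular to these genes. The median log2 fold change of CPM over all genes tested was -0.68 with LPS and 0.31 with NCT503 added. The control libraries had a read for 170 to 176 of these genes, the LPS libraries for 159 to 169 and those with NCT503 for 172 to 175.

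The first comparison asks what LPS did to these genes. Among 172 genes that passed the filter on low values (1 normalized read or more as the mean of either group), 70 were lower and 22 higher with LPS at a limma adjusted p under 0.05. Over all 19975 genes tested, 41.8% were called, 21.4% lower and 20.5% higher, so the share of lower calls was above the background and the share of higher calls was below it. The median log2 fold change was -0.47 for these genes and -0.05 over all genes tested. For protein-coding genes alone 49.8% were called, 25.7% lower and 24.1% higher. Of the 172 genes 53.5% were called, 40.7% lower and 12.8% higher. When the libraries were scaled by their totals alone (CPM scaling), the median over all genes fell by 0.63, 115 of the 172 genes were lower and 6 were higher, against 42% lower and 10.3% higher over all genes. Without the second control library 44 were lower and 13 higher, and without the third LPS library 45 were lower. Shares over all genes with these libraries left out are not given here.

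Among clustered genes 92 of 176 were lower and 10 higher, with a median of -0.92, which is given as a description with no test. By the number of such neighbours within 250 kb, the median was -0.42 for genes with none (22 higher and 47 lower of 128) and -0.83 for genes with 1 (0 higher and 23 lower of 44). Just outside the rule, genes with 2 neighbours had a median of -0.81 (3 higher and 13 lower of 28). Genes with 3 to 5 had -0.89 and genes with 6 or more had -0.98. The 22 genes called higher therefore all came from those with no such neighbour in the window. Of 21 pairs of genes that are each other's single neighbour, 19 had both genes tested, and in 5 both were called with LPS, all 5 with both genes lower. All 23 LPS calls of genes with 1 neighbour were lower, so 2 calls in a pair could only have the same sign. These pairs were Zfp12 and Zfp316, Zfp157 and Zfp68, Zfp72 and Zfp825, Zfp182 and Zfp300, and Zfp551 and Zfp606, which were named after their values were seen. Zfp300, with an LPS mean of 0.874 normalized reads, passed the filter only through the control group. With NCT503 added both genes were called in 1 of 18 pairs, with opposite signs (Zfp467 -1.37 and Zfp775 1.00), and in the third comparison in 3 of 19 pairs, 2 of them with the same sign.

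**Figure D1:**
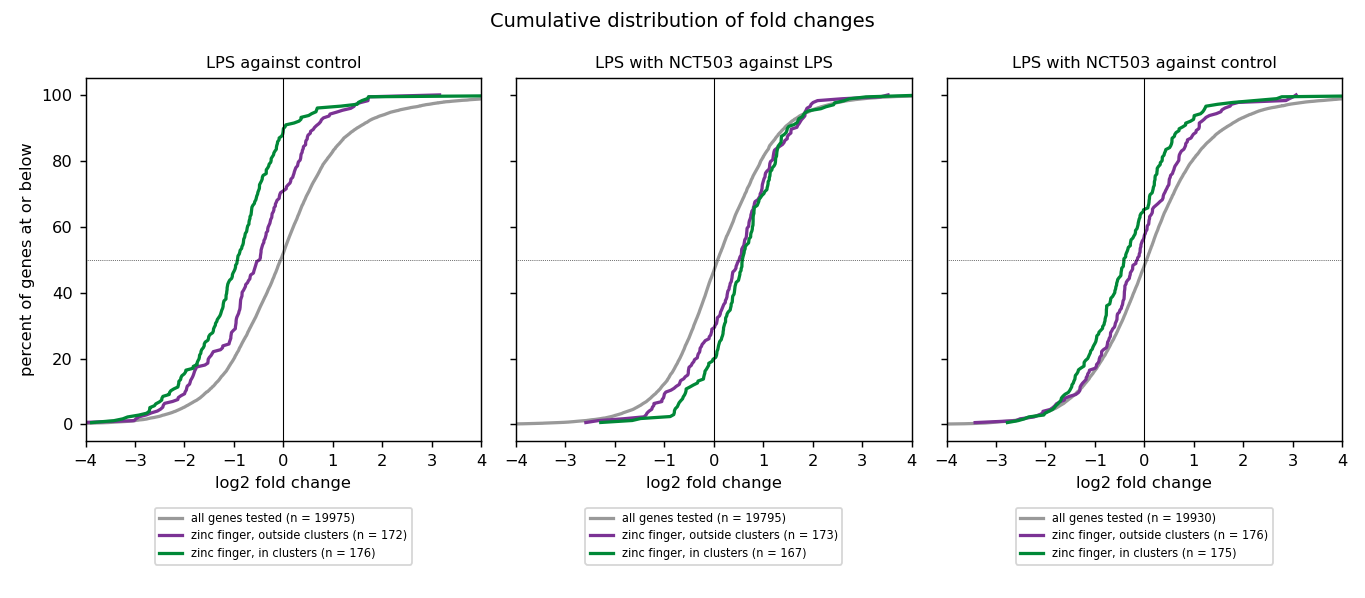
Cumulative share of genes (vertical axis, percent) at or below each log2 fold change (horizontal axis, drawn from -4 to 4) for all genes tested (grey), zinc finger genes outside clusters (purple) and clustered zinc finger genes (green). With LPS the purple curve crosses 50% at -0.47 and the green one at -0.92, and with NCT503 added to LPS they cross at 0.52 and 0.58, while the grey curves cross near 0.

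Level and length were compared in classes, which are the lowest, middle and highest tertile of all protein-coding genes tested. In the lowest class of mean level, 37 of 74 genes outside clusters were lower with LPS (50%) and 3 higher (4.05%), against 24.0% and 10.8% over all protein-coding genes of that class, and the medians were -0.97 and -0.35. In the middle class 27 of 72 were lower (37.5%) and 10 higher (13.9%), near the 37.7% and 17.2% of that class, with medians of -0.35 and -0.31. In the highest class 6 of 26 were lower (23.1%) and 9 higher (34.6%), against 15.5% and 44.4%, with medians of 0.19 and 0.35. By length, the medians were -0.36 against 0.04 in the shortest class (34 genes), -0.57 against -0.02 in the middle class (61 genes) and -0.46 against -0.13 in the longest (77 genes). These class values are descriptions, and no test was made between the classes.

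**Figure D2:**
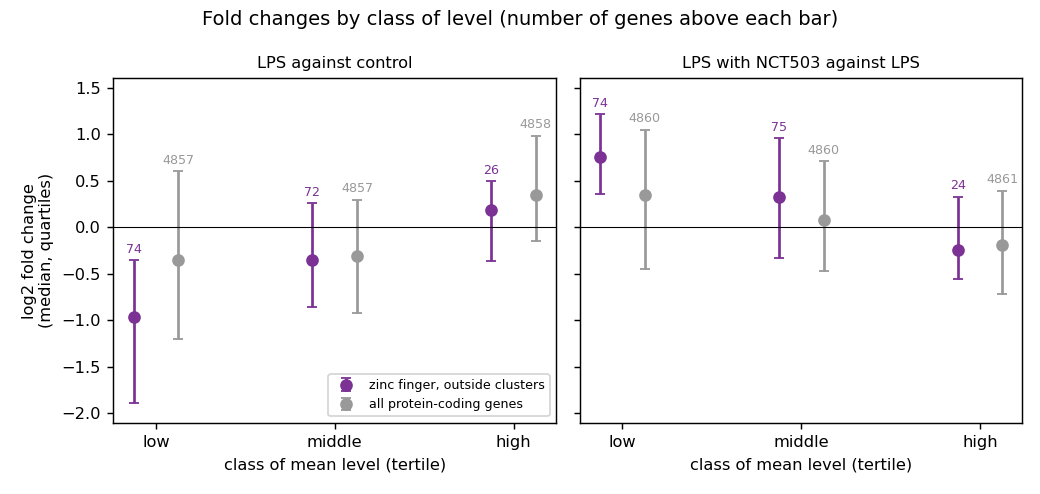
Median log2 fold change (points) with lower and upper quartiles (bars) in the lowest, middle and highest tertile of mean level, for zinc finger genes outside clusters (purple) and all protein-coding genes (grey). Numbers above the bars are genes tested. With LPS the purple median rises from -0.97 in the low class to 0.19 in the high class, and with NCT503 added to LPS it falls from 0.76 to -0.24.

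Zfp395 had the largest fall with LPS. The human counterpart of its product was described as a protein that binds the promoter of the huntingtin gene. The gene lies at chr14:65358389-65398930 (mm10), and its normalized reads were 869, 1197 and 1221 in control, 42.6, 68.2 and 85.2 in LPS, and 77.5, 133 and 97.4 in LPS with NCT503. All control libraries were far above the others, while the LPS groups with and without NCT503 overlapped. With LPS its log2 fold change was -4.08 ± 0.25 (SE, limma adjusted p = 2.07e-07), and that of NCT503 added to LPS was 0.66 (adjusted p = 0.131).

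Zfp704, a relative of Zfp395 at chr3:9427020-9610085, had 727, 662 and 589 normalized reads in control, 88.7, 94.1 and 104 in LPS, and 620, 541 and 591 in LPS with NCT503. The LPS libraries were low and apart from both other groups, which overlapped each other. The log2 fold change was -2.77 ± 0.17 with LPS (limma adjusted p = 1.86e-07), 2.60 ± 0.19 with NCT503 added to LPS (2.99e-06) and -0.17 for LPS with NCT503 against control (0.414).

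LPS was also the lowest group in Zfp608 and Zfp692. Zfp608, at chr18:54888045-54990180, had 316, 220 and 254 normalized reads in control, 84.1, 62.7 and 83.9 in LPS, and 352, 222 and 337 in LPS with NCT503, with log2 fold changes of -1.75 ± 0.22 and 1.95 ± 0.25 in the first 2 comparisons. Zfp692, whose human counterpart binds a sequence responsive to the AMPK activator AICAR, is at chr11:58307069-58314627. Its normalized reads were 93.6, 89.6 and 73.7 in control, 18.4, 20.5 and 32.8 in LPS, and 67.3, 93.6 and 82.3 in LPS with NCT503. In both genes the LPS group lay below the other groups, and control and LPS with NCT503 overlapped. In Zfp72 LPS was lowest as well, with means of 61.1, 14.1 and 47.4 normalized reads in control, LPS and LPS with NCT503, and log2 fold changes of -2.07 with LPS and 1.72 with NCT503 added.

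The next genes complete the largest falls with LPS among calls without overlap between groups and with at least 50 normalized reads in the higher group. Some genes under that floor had larger called falls than these, among them Zfp449 (-3.02), Zfp791 (-2.98), Zfp973 (-2.92) and Zfp286 (-2.67), which had control means of 10.6 to 17.9 normalized reads and were named after their values were seen. Zfp788 (chr7:41633203-41651530) went from 74.2 ± 13.9 normalized reads in control to 14.0 ± 7.79 in LPS, with 30.0 ± 5.5 in LPS with NCT503 (SD, n = 3). Zfp770 (chr2:114193461-114201469) had 77.2 ± 19.7, 18.4 ± 11.4 and 30.4 ± 6.07. Zfp157, Zfp41, Zfp369 and Zfp120 had log2 fold changes between -1.94 and -1.85 with LPS. In these 6 genes no LPS library reached the control range, and with NCT503 added to LPS none of the 6 passed the test (limma adjusted p of 0.067 for Zfp788 to 0.627 for Zfp157).

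Zfp800 had the largest rise with LPS. It lies at chr6:28239927-28398005, and its normalized reads were 269, 253 and 179 in control, 2288, 1822 and 2081 in LPS, and 2287, 1117 and 1852 in LPS with NCT503. Every library with LPS was above every control library, and the groups with and without NCT503 overlapped. The log2 fold change was 3.16 ± 0.18 with LPS (limma adjusted p = 1.21e-07) and -0.29 ± 0.25 with NCT503 added (0.397).

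Zfp281 encodes a regulator known from embryonic stem cells and lies at chr1:136624901-136630053. Its normalized reads were 756, 734 and 695 in control, 2736, 2096 and 2358 in LPS, and 1599, 768 and 1347 in LPS with NCT503. The LPS group was highest, and the library with NCT503 nearest to control was still above the control range. This was a log2 fold change of 1.71 ± 0.15 with LPS (limma adjusted p = 3.25e-06) and -1.01 ± 0.25 with NCT503 added (0.0104). Zfp148, its closest relative in sequence and DNA binding, had 567, 484 and 338 in control, 320, 196 and 257 in LPS, and 605, 367 and 555 in LPS with NCT503. Its log2 fold changes were -0.83 with LPS (0.0131) and 0.98 with NCT503 added (0.0108), opposite in sign to those of Zfp281 in both comparisons. The calls of Zfp148 were lost when the second LPS library or a control library (the first or the second) was left out of the first comparison, at -0.78 to -0.65 (0.0518 to 0.0572). They were lost in the second comparison without the second LPS library or the first or the third library with NCT503, at 0.80 to 0.89 (0.0536 to 0.0556).

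Zfp821, at chr8:109705546-109724932, had 249, 207 and 214 normalized reads in control, 700, 742 and 763 in LPS, and 364, 258 and 337 in LPS with NCT503, with no overlap between any 2 groups. Zfp513, known from retinal development, had 1077, 1301 and 1256 in control, 2887, 4450 and 3463 in LPS, and 2469, 2795 and 2231 in LPS with NCT503, and its fall of 0.51 on the log2 scale with NCT503 did not pass the test (limma adjusted p = 0.0674), but passed with DESeq2 (adjusted p = 0.0437) and in 1 fit of all 9 libraries (0.0374). Zfp503, which encodes a corepressor related to that of Zfp703, rose from 294 ± 42.6 to 766 ± 186 normalized reads with LPS and stood at 976 ± 90.3 with NCT503. Zfp319 rose from 1189 ± 132 to 2517 ± 457 and had 1551 ± 192 with NCT503.

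The 6 genes Zfp800, Zfp821, Zfp281, Zfp513, Zfp503 and Zfp319 were those called higher with LPS under every scaling tried. The other 4 of the 10 largest rises by the same rule of no overlap and 50 normalized reads, Zfp558, Zfp691, Zfp523 and Zfp131, had log2 fold changes of 1.71, 1.20, 0.92 and 0.81, and of 1.03, 0.50, 0.22 and 0.11 under CPM scaling, where they did not pass the test (limma adjusted p of 0.0704 to 0.702). Under every scaling 58 genes were called lower. The share of all genes called under every scaling is not given here, for either direction.

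**Figure D3:**
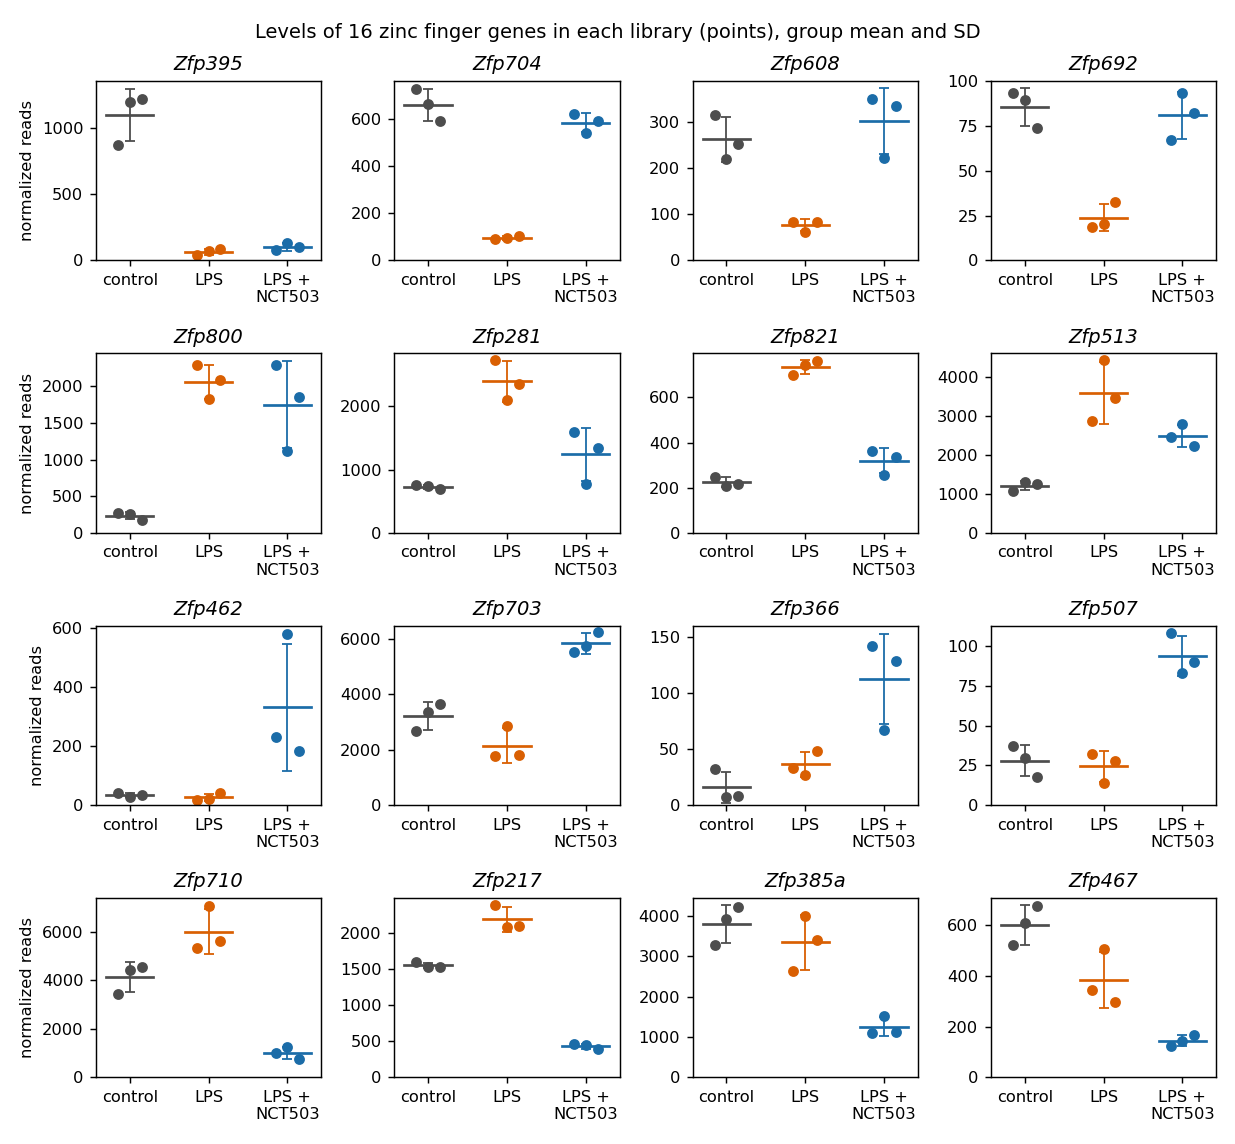
Normalized reads (vertical axes, each from 0) of 16 zinc finger genes in the 9 libraries (points), with group means (horizontal lines) and SD (bars, n = 3). In the top row control is high and LPS low, with Zfp704 back at 541 to 620 when NCT503 was added and Zfp395 at 77.5 to 133. The second row shows rises with LPS, the third row genes highest with NCT503 and the bottom row genes lowest with NCT503.

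The second comparison asks how cells given LPS differed when NCT503 was added. These libraries hold no measure of PHGDH activity, and no group had NCT503 without LPS. Effects of NCT503 through PHGDH, through other targets or apart from LPS cannot be told apart here. Among 173 genes tested, 44 were higher and 20 lower with NCT503 added to LPS. Over all 19795 genes tested 32.6% were called, 16.9% higher and 15.7% lower, so the share of higher calls was above the background and that of lower calls below it. The median log2 fold change was 0.52, against 0.08 over all genes and 0.58 over the clustered genes (46 higher and 7 lower of 167). For protein-coding genes alone 38.9% were called, 19.7% higher and 19.2% lower. Of the 173 genes 37.0% were called, 25.4% higher and 11.6% lower. Under CPM scaling the median over all genes rose by 0.23, and 65 genes were higher and 16 lower, against 22.3% and 10.8% over all genes. The LPS libraries are the same in both comparisons, so an error in their mean moves the 2 sets of fold changes in opposite directions. The number of higher calls was 22 to 26 when any one of 4 libraries was left out: the second (26) or the third (25) with LPS, or the first (24) or the third (22) with NCT503. Shares over all genes with these libraries left out are not given here.

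By level, 16 of 74 genes in the lowest class were higher (21.6%) and 2 lower (2.70%), against 15.3% and 7.24% over all protein-coding genes of that class, with medians of 0.76 and 0.35. In the middle class 24 of 75 were higher (32%) and 11 lower (14.7%), against 24.3% and 18.2%, with medians of 0.33 and 0.08. In the highest class 4 of 24 were higher (16.7%) and 7 lower (29.2%), near the 19.4% and 32.1% of that class, with medians of -0.24 and -0.19. By length the medians were 0.42 against -0.17 in the shortest class, 0.55 against 0.01 in the middle class and 0.56 against 0.29 in the longest. Genes with no such neighbour had a median of 0.45 (35 higher and 17 lower of 129), those with 1 had 0.64 (9 and 3 of 44) and those with 2, just outside the rule, had 0.69 (7 and 2 of 26).

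Zfp462 had the largest rise with NCT503. Its product is known for keeping heterochromatin at genes of other lineages in embryonic stem cells. The gene lies at chr4:54945048-55083563, and its normalized reads were 40.3, 28.0 and 34.5 in control, 16.1, 21.8 and 40.7 in LPS, and 230, 581 and 185 in LPS with NCT503. Every library with NCT503 was above every other, and their spread was wide (332 ± 216, SD). It had a log2 fold change of 3.52 ± 0.43 against LPS (limma adjusted p = 0.00011) and 3.07 ± 0.38 against control (0.000127).

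Zfp703 (chr8:26977325-26981461) had 2663, 3341 and 3632 normalized reads in control, 1757, 2871 and 1798 in LPS, and 5525, 5733 and 6234 in LPS with NCT503. The libraries with NCT503 were the highest, and the control and LPS ranges overlapped. The log2 fold change was 1.48 ± 0.21 against LPS (limma adjusted p = 0.000274), and that of LPS against control was -0.61 (0.0343). The latter call was lost without the first or the third LPS library or the second or the third control library, at -0.57 to -0.48 (0.102 to 0.153).

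Zfp366 encodes DC-SCRIPT, a coregulator of nuclear receptors expressed in dendritic cells, and lies at chr13:99184823-99250656. It had 32.1, 7.0 and 8.01 normalized reads in control, 33.4, 27.3 and 48.5 in LPS, and 142, 66.6 and 129 in LPS with NCT503. The libraries with NCT503 were above all others, and the first control library lay within the LPS range. The log2 fold change with NCT503 was 1.56 ± 0.34 against LPS (limma adjusted p = 0.0049) and 3.01 ± 0.53 against control (0.00137). The 4 dendritic cell markers listed (Flt3, Zbtb46, Xcr1 and Siglech) summed to 0.406 to 1.97 CPM in control, 2.0 to 3.06 with LPS and 3.09 to 4.87 when NCT503 was added, and their part in this result was not tested. Xcr1 had 0 to 4.78 normalized reads in control, 10.4 to 31.5 in LPS and 22.9 to 63.2 with NCT503, and Zbtb46 had 4.01 to 16.4, 31.1 to 43.3 and 33.6 to 44.9. Flt3 did not follow that order, with 3.21 to 9.80, 3.46 to 6.82 and 3.12 to 4.33, and Siglech was at 0 in the 3 libraries with NCT503.

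Zfp507 had 36.9, 29.4 and 17.6 normalized reads in control, 32.3, 13.6 and 27.5 in LPS, and 108, 83.2 and 89.8 in LPS with NCT503, a log2 fold change of 1.96 ± 0.34 against LPS. Its exons overlap those of another gene over 28% of their length, and without a stated strand setting such reads cannot be assigned with certainty. Zfp867 rose by 2.0, Zfp317 by 1.69 and Zfp655 by 1.51 on the log2 scale. Zfp655 had 588, 510 and 504 normalized reads in LPS and 1802, 1147 and 1685 with NCT503, without overlap. With Zfp462, Zfp704, Zfp608, Zfp692, Zfp366 and Zfp703 these were the 10 largest rises among calls without overlap between groups and with at least 50 normalized reads in the higher group. Zfp292 rose by 1.56 (limma adjusted p = 0.0129) with overlapping groups, 340, 115 and 197 normalized reads in LPS and 792, 320 and 777 with NCT503, and is named here after its values were seen.

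Zfp710 had the largest fall with NCT503. It lies at chr7:80024814-80094173 and had 3432, 4407 and 4559 normalized reads in control, 5316, 7076 and 5626 in LPS, and 1002, 1252 and 771 in LPS with NCT503. The groups did not overlap, and the libraries with NCT503 were lowest, with LPS highest. Against LPS the log2 fold change was -2.59 ± 0.21 (limma adjusted p = 5.61e-06), and against control it was -2.05 ± 0.20 (2.06e-05). The smaller difference of LPS against control, 0.54 (0.024), was not called under TMM scaling (0.44), nor without the first or second control library or the second or the third LPS library (0.41 to 0.60), and was -0.16 under CPM scaling.

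Zfp217, which encodes a corepressor of the CtBP and CoREST complexes that is amplified in breast cancer, had 1593, 1523 and 1530 normalized reads in control, 2380, 2081 and 2094 in LPS, and 457, 442 and 391 in LPS with NCT503. The groups did not overlap, and the libraries with NCT503 were lowest. With NCT503 added the log2 fold change was -2.34 ± 0.16 (limma adjusted p = 2.17e-06). That of LPS against control was 0.50 (0.0116), but 0.49 (0.0688) without the second control library and -0.20 under CPM scaling.

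Zfp385a, the gene with the highest level per kb, had 3292, 3924 and 4218 normalized reads in control, 2646, 4007 and 3413 in LPS, and 1101, 1525 and 1139 in LPS with NCT503. Its LPS difference of -0.19 was not called (limma adjusted p = 0.422), but was -0.89 (0.000304) under CPM scaling and -0.96 (0.000126) under quantile normalization, called in both. Only the libraries with NCT503 stood apart in normalized reads, with a log2 fold change of -1.41 ± 0.21 against LPS (limma adjusted p = 0.000345). Zfp467, known from the choice between bone and fat cell fates, had 521, 608 and 675 in control, 343, 507 and 299 in LPS, and 124, 143 and 167 in LPS with NCT503. Its 3 groups did not overlap, and its log2 fold changes were -0.67 with LPS, -1.37 with NCT503 added and -2.05 for LPS with NCT503 against control.

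Zfp207 encodes BuGZ, a protein of the spindle assembly checkpoint, and had narrow groups: 1314, 1301 and 1272 normalized reads in control, 2115, 2116 and 2140 in LPS, and 946, 837 and 886 in LPS with NCT503. The 3 groups did not overlap. With NCT503 added it fell by 1.25 on the log2 scale (limma adjusted p = 0.000119), while its difference of 0.72 with LPS was 0.02 under CPM scaling and 0.24 under quantile normalization and was not called in either.

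By the same rule, the other genes among the 10 largest falls with NCT503 were Zfp558 (-1.82), Zfp276 (-1.35), Zfp523 (-1.31), Zfp691 (-1.24) and Zfp821 (-1.21). Each of these 5 genes had its highest mean in LPS. Zfp523, the mouse counterpart of human ZNF76 and a relative of Zfp143, had 179, 192 and 192 normalized reads in control, 283, 390 and 407 in LPS, and 122, 185 and 128 in LPS with NCT503. Zfp691 had means of 53.3, 122 and 49.9. The call of Zfp558 was lost without the first or the third LPS library, at -1.72 (limma adjusted p = 0.083) and -1.71 (0.0937).

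The third comparison sets LPS with NCT503 against control, over the genes in both tables, and shares libraries with each of the first 2. Among 176 genes tested, 27 were higher and 48 lower. Over all 19930 genes 40.4% were called, 20.7% higher and 19.7% lower, and the median was -0.14 for these genes and 0.05 over all. For protein-coding genes alone 47.9% were called, 23.7% higher and 24.1% lower. Of the 176 genes 42.6% were called, 15.3% higher and 27.3% lower, so their share of lower calls was near that of protein-coding genes. Under CPM scaling 13 were higher and 73 lower, against 12.4% and 33.3% over all genes, and without the second control library 28 were lower. The share over all genes without that library is not given here. By the rule of no overlap and at least 50 normalized reads, the genes with the largest falls were Zfp395 (-3.42), Zfp157 (-2.23), Zfp512b (-2.14), Zfp710, Zfp467, Zfp217, Zfp41 (-1.62), Zfp385a (-1.61), Zfp606 (-1.34) and Zfp219 (-1.30). The fall of Zfp606 was not called without the second control library (-1.26, limma adjusted p = 0.055). Zfp512b was lower at each step, with 219, 235 and 200 normalized reads in control, 109, 102 and 95.7 in LPS, and 38.7, 62.4 and 47.6 in LPS with NCT503.

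By that rule the largest rises in the third comparison were in Zfp462, Zfp366, Zfp800 (2.86), Zfp507 (1.76), Zfp503 (1.73), Zfp827 (1.57), Zfp867 (1.55), Zfp131 (1.46), Zfp639 (1.32) and Zfp945 (1.11). Zfp945 had 0.66 under CPM scaling and was not called there (limma adjusted p = 0.103). Zfp131, a BTB domain protein, had 287, 228 and 233 normalized reads in control, 521, 406 and 386 in LPS, and 760, 539 and 772 in LPS with NCT503. Its groups did not overlap and rose in that order, with log2 fold changes of 0.81, 0.65 and 1.46 in the 3 comparisons. The second of these was not called without the second or the third LPS library or the first or the third with NCT503 (0.56 to 0.61).

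Not overlapping in any library of the 2 groups compared was found for 101 of 172 genes with LPS, for 90 of 173 with NCT503 added and for 95 of 176 in the third comparison. Over all genes tested these shares were 50.8%, 44.9% and 50.2%. A call with at least a 2-fold change was made for 55 genes with LPS (10 higher and 45 lower), against 28.6% of all genes in either direction, 13.6% higher and 15% lower. With NCT503 added there were 50 (34 higher and 16 lower), against 22.1% in either direction, 12.6% higher and 9.51% lower. In the third comparison there were 44 (16 higher and 28 lower), against 27.5% in either direction, 14.6% higher and 12.9% lower. No call was made in any of the 3 comparisons for 55 of the 184 genes, of which 6 passed the filter in none.

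Genes for RNA, ribosome, spindle and protein modification functions formed a list of 14, all of them outside clusters. With LPS 1 was higher, Zfp207, and 3 were lower, Zfp706, Zfp106 and Zfp638, with a list median of -0.25. That is 28.6% called, 21.4% lower and 7.14% higher, against 41.8%, 21.4% and 20.5% over all genes tested. For protein-coding genes alone these shares were 49.8%, 25.7% and 24.1%. Under CPM scaling 11 were lower and 0 higher, with a median of -0.95, against 42% and 10.3% over all genes. With NCT503 added 4 were higher (28.6%), Zfp106, Zfp638, Zfp330 and Zfp91, and 2 were lower (14.3%), Zfp207 and Zfp385a, against 16.9% and 15.7% over all genes, with a median of 0.19. Of protein-coding genes 19.7% were higher and 19.2% lower. Zfp91, a ubiquitin ligase that acts on the NF-kappaB-inducing kinase, had 1996, 1514 and 1667 normalized reads in LPS and 2699, 2512 and 2955 with NCT503, without overlap. With LPS it had -0.16 (limma adjusted p = 0.415), but -0.86 (0.00323) under CPM scaling and -0.69 (0.00328) under quantile normalization.

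Zfp598, the ligase for collided ribosomes, had 879, 1058 and 1113 normalized reads in control, 1212, 1623 and 1145 in LPS, and 1195, 2613 and 1272 in LPS with NCT503. The second library with NCT503 was far above the others of its group, and neither comparison passed the test (limma adjusted p = 0.102 and 0.487). Zfp622 had means of 2033, 1701 and 2395 normalized reads and log2 fold changes of -0.26 and 0.50, neither called (limma adjusted p = 0.272 and 0.0787). Its fall with LPS was called under CPM scaling (-0.97, limma adjusted p = 0.000293) and quantile normalization (-0.80, 0.00115). Its rise with NCT503 was called under CPM scaling (0.75, 0.00771), quantile normalization (0.66, 0.0231) and with edgeR (0.54, 0.0468). Zfp346, which binds double-stranded RNA, Zfp326, which joins splicing to transcription elongation, Zfp830, Zfp593 and the SUMO ligase gene Zfp451 were not called either, with log2 fold changes from -0.48 to -0.06 with LPS and from -0.17 to 0.56 with NCT503 added. Under CPM scaling Zfp346 (-1.15), Zfp326 (-1.18), Zfp451 (-0.94) and Zfp830 (-0.76) were called lower with LPS and Zfp451 (0.80) higher with NCT503 added. The LPS call of Zfp638 was lost without the second or the third LPS library or the first or second control library, at -0.78 to -0.70, and that of Zfp706 without the second control library (-0.52, limma adjusted p = 0.0593). With NCT503 added, the calls of Zfp638 (0.81 to 0.89) and Zfp106 (0.72 to 0.90) were lost without the second or the third LPS library or the first or the third with NCT503. Those of Zfp330 (0.72) and Zfp91 (0.64 and 0.60) were lost without the third LPS library or the third with NCT503. The exons of Zfp106 overlap another gene over 26% of their length.

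**Figure D4:**
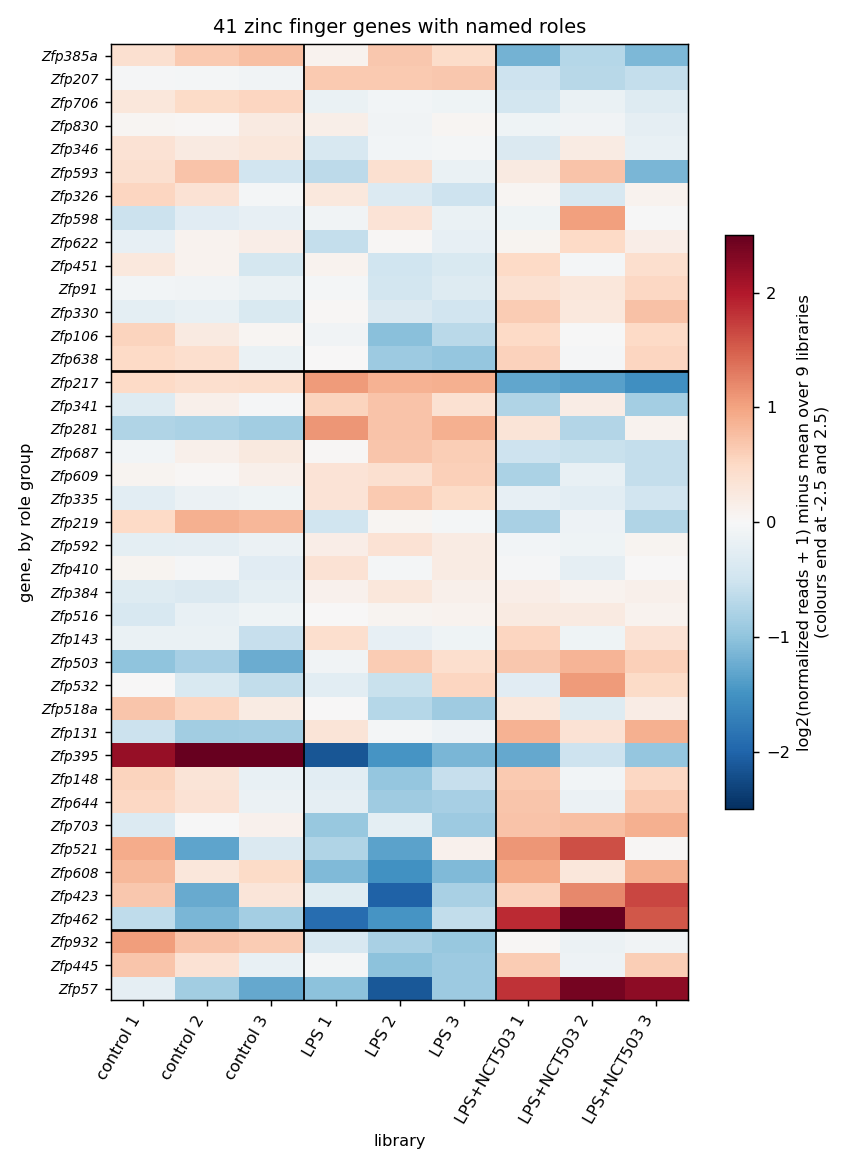
Relative level (colour, log2 of normalized reads + 1 minus the mean over 9 libraries, with colours ending at -2.5 and 2.5) of 41 zinc finger genes outside clusters in each library. Black horizontal lines separate the lists for RNA and protein functions (14 genes), chromatin and sequence-specific regulation (24) and imprint and retroelement silencing (3), and genes are ordered within a list by fold change with NCT503. Zfp395 is high in control alone, and Zfp462 and Zfp57 are high in the libraries with NCT503.

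Of 26 listed chromatin and sequence-specific regulators 24 were outside clusters. With LPS 8 were higher (33.3%) and 7 lower (29.2%), against 20.5% and 21.4% over all genes tested and 24.1% and 25.7% over protein-coding genes, with a list median of 0.27. Under CPM scaling the median turned to -0.43 with 2 higher and 9 lower, against 10.3% and 42% over all genes. With NCT503 added 8 were higher (33.3%) and 6 lower (25%), against 16.9% and 15.7% over all genes and 19.7% and 19.2% over protein-coding genes, with a list median of 0.30. Higher with LPS were Zfp281, Zfp503, Zfp131, Zfp335, Zfp341, Zfp217, Zfp384 and Zfp592, of which Zfp281 and Zfp503 were also called under CPM scaling. Lower were Zfp395, Zfp608, Zfp518a, Zfp219, Zfp644, Zfp148 and Zfp703. With NCT503 added, Zfp462, Zfp423, Zfp608, Zfp521, Zfp703, Zfp644, Zfp148 and Zfp131 were higher and Zfp217, Zfp341, Zfp281, Zfp687, Zfp609 and Zfp335 lower. The exons of Zfp335 overlap other genes over 28% of their length, and those of Zfp532, also on this list, over 29%.

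Several of these regulators are close relatives or partners, and their values differed. Zfp608 and Zfp609 are relatives. Zfp609 had 506, 495 and 526 normalized reads in control, 613, 642 and 737 in LPS, and 279, 426 and 321 in LPS with NCT503, with log2 fold changes of 0.38 (limma adjusted p = 0.0555, with 0.0472 by DESeq2) and -0.97 (0.00347), where Zfp608 had -1.75 and 1.95. Zfp503 and Zfp703, also relatives, had 1.36 and -0.61 with LPS and 0.38 and 1.48 with NCT503 added, of which the 0.38 was not called. Zfp592, Zfp687 and Zfp532, whose products form one chromatin complex, had 0.45, 0.35 and 0.24 with LPS, the first called, and -0.28, -1.0 and 0.52 with NCT503 added, the second called.

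Zfp423 and Zfp521 are relatives that act in fat and blood progenitors and had few reads here. Zfp423 had 5.47, 0.700 and 4.01 normalized reads in control, 2.30, 0 and 1.31 in LPS, and 5.10, 8.32 and 11.9 in LPS with NCT503. Zfp521 had 17.1, 2.80 and 6.41, then 4.61, 2.73 and 9.18, then 19.4, 28.1 and 8.66. The LPS libraries of Zfp521 overlapped those with NCT503, and both calls with NCT503 were lost with DESeq2 (adjusted p = 0.0721 and 0.0603) or a pseudocount of 0.1 (0.0536 and 0.0576). The call of Zfp423 was also lost without the second LPS library (1.65) or the third with NCT503 (1.84), and that of Zfp521 without the first or second library of either group (1.21 to 1.51). Both genes are also expressed in stromal cells, whose marker sums overlapped between the groups, and the part of such cells was not tested. Single markers differed. Pdgfrb had 70.0 to 290 normalized reads in control, 689 to 1060 in LPS and 94.8 to 196 with NCT503. The LPS ranges of Col1a1, Col3a1 and Dcn overlapped those of both other groups.

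Zfp341, an activator of Stat3 transcription, had 66.3, 91.0 and 80.9 normalized reads in control, 122, 136 and 109 in LPS, and 48.9, 94.7 and 45.5 in LPS with NCT503. The LPS libraries were above all others. The log2 fold changes were 0.63 (limma adjusted p = 0.0382) and -1.02 (0.0232), and leaving out any one library ended the first call (0.50 to 0.73). The second call was ended by leaving out any library but the second with NCT503 (-1.10 to -0.83). Zfp644, a partner of the histone methyltransferases of the Ehmt family, had 370, 334 and 235, then 222, 140 and 146, then 420, 233 and 411, with log2 fold changes of -0.88 and 1.05. Its LPS call was lost without the second control library (-0.82) or the third LPS library (-0.79), and its call with NCT503 without the second or the third LPS library or the first or the third with NCT503 (0.90 to 0.95). The LPS call of Zfp592 was lost without the second or the third LPS library or the second control library (0.39 to 0.47) and under TMM scaling (0.35), and that of Zfp384 without the second control library (0.46) and under quantile normalization (0.010, limma adjusted p = 0.953).

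Zfp143, which binds many promoters and loop anchors, had means of 163, 210 and 246 normalized reads and was called in neither comparison (limma adjusted p = 0.227 and 0.5). Zfp516, Zfp410 and Zfp532 were also called in neither. With LPS Zfp516 had 0.29, but was called lower under CPM scaling (-0.41, limma adjusted p = 0.00886) and quantile normalization (-0.31, 0.0475). Zfp410 is known to activate Chd4, and its means were 243, 289 and 242 normalized reads. Chd4 itself had 5604, 5908 and 2868, a log2 fold change of -1.04 with NCT503 added.

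Of 7 listed genes for silencing of imprints and retroelements 3 were outside clusters. Zfp57, which maintains methylation of imprinted regions, lies at chr17:37001163-37010635 and had 2.73, 1.40 and 0.801 normalized reads in control, 1.15, 0 and 1.31 in LPS, and 14.3, 21.9 and 19.5 in LPS with NCT503. The libraries with NCT503 were above all others, and the other groups were near the filter of 1 normalized read. With an LPS mean of 0.821, Zfp57 passed that filter against LPS only through the group with NCT503, which favoured a higher value. Its log2 fold change was 3.37 ± 0.51 against LPS (limma adjusted p = 0.000424), on the scale of log2(normalized reads + 1), which understates changes of genes with few reads. Zfp445, which acts on imprinted regions with it, had 789, 624 and 425, then 473, 237 and 260, then 753, 448 and 748. The ranges of Zfp445 overlapped in both comparisons. Its log2 fold changes were -0.94 with LPS and 1.04 with NCT503 added. The first call was lost without the second or the third LPS library or the first or second control library (-0.90 to -0.74), and the second without the second or the third LPS library or the first or the third with NCT503 (0.86 to 0.91). Zfp932, which represses endogenous retroviruses, had means of 73.7, 25.1 and 39.7 and a log2 fold change of -1.52 with LPS, and 45% of its 50-base stretches occur in other genes.

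KRAB zinc finger proteins act through a set of corepressors, of which 35 were listed and all were tested. With LPS 7 were higher (20%) and 16 lower (45.7%), against 20.5% and 21.4% over all genes tested and 24.1% and 25.7% over protein-coding genes, with a list median of -0.44. Under CPM scaling 3 were higher and 27 lower, against 10.3% and 42%, with a median of -1.14. With NCT503 added 6 were higher (17.1%), near the 16.9% over all genes, and 9 lower (25.7%), against 15.7%, with a median of -0.048 that turned to 0.19 under CPM scaling (10 higher and 5 lower, against 22.3% and 10.8%). Of protein-coding genes 19.7% were higher and 19.2% lower in the main fit. Trim28, the corepressor that KRAB domains bind, had means of 2715, 2300 and 2475 normalized reads and log2 fold changes of -0.24 (limma adjusted p = 0.295) and 0.10 (0.725). Its partner Setdb1, a histone H3 lysine methyltransferase, fell from 723 to 260 with LPS and had 207 with NCT503, a log2 fold change of -1.48 with LPS. Cbx3, a heterochromatin protein, fell by 2.07 on the log2 scale, Chd3 by 1.24 and Dnmt1 by 1.22.

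Daxx, a histone chaperone that responds to interferon, rose from 1621 to 15989 normalized reads with LPS (log2 fold change 3.29) and had 4538 with NCT503 (-1.83 against LPS). Hdac1 rose from 941 to 2977 and had 1338 with NCT503. With NCT503 added, the DNA methyltransferase gene Dnmt3a rose by 1.90 on the log2 scale and Trim24 by 1.85, while Ehmt2 fell by 1.33.

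Reads of some genes could not be assigned with certainty. In GENCODE M21, 61 of the 184 genes share exon sequence with another gene, 9 of them over more than 20% of their length, and for 16 genes more than 20% of 50-base transcript stretches occur in other genes. Without these 23 genes 61 were lower and 21 higher of 153 tested with LPS, 41 higher and 19 lower of 153 with NCT503 added, and 26 higher and 43 lower of 156 in the third comparison. Over all genes tested, with none left out for such overlap, 21.4% were lower and 20.5% higher with LPS. With NCT503 added 16.9% were higher and 15.7% lower, and in the third comparison 20.7% and 19.7%. By the same annotation 5 of the 184 genes have more than 1 such neighbour.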

How the data were processed

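RNA was measured in 9 libraries of mouse bone-marrow-derived macrophages, 3 per group. TopHat2 and mm10 are named per the submitters' processing notes. For program versions, read counter, annotation and strand setting the sources used here give nothing. The authors deposited 1 table for LPS against control (23001 genes) and 1 for LPS with NCT503 against LPS (22620 genes). Per the file headers and values, each deposited table holds a signal per library, which is a number of reads divided by that library's size factor. Each deposited table also holds the authors' log2 fold change and p-value with its adjusted form.

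In each of 12 library columns 100% of the deposited signal values were whole multiples of 1 read (tolerance 0.001), so reads were recovered. The LPS reads were equal in 100% of values over the 21434 genes in both tables, and the 9 libraries were joined there with median-of-ratios size factors. Levels in the text are these normalized reads. Fold changes come from the deposited table of each comparison, or from the joined libraries for LPS with NCT503 against control.

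The filter kept genes whose mean was 1 normalized read or more in either group. A gene below that in either group passed only through the other, so the filter favoured its direction. Such genes include Zfp239, Zfp300 and Zfp385c among the lower calls with LPS (LPS means of 0.821, 0.874 and 0). Zfp57 is such a gene among the higher calls with NCT503 added. The test was limma-trend, with robust eBayes (limma 3.58.1 under R 4.3.3), on the log2 of normalized reads plus 1. P-values were adjusted by Benjamini-Hochberg over all genes tested and called under 0.05. The fit was tested on simulated data. Counts of reads recovered from the deposited signal also went into edgeR 4.0.16 and DESeq2 1.42.0 as alternatives. In the authors' deposited table, by their adjusted p under 0.05, 22 of 182 listed zinc finger genes outside clusters were higher and 63 lower with LPS, and 39 of 180 higher and 21 lower with NCT503 added. The share over all genes by that adjusted p is not given here, so these counts have no background beside them.

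Named genes are the 10 largest rises and falls per comparison among calls without overlap between groups and with a mean of 50 normalized reads or more in the higher group, the 8 with the most reads per kb, the members of 3 role lists, and the 6 corepressor genes with the smallest p in each of the first 2 comparisons. Trim28, Chd4 beside Zfp410, the comparisons of relatives and the neighbour pairs were picked outside that rule, after values were seen. The zinc finger genes and all lists were chosen with earlier results of these data known. Genes of like length and level are described by class, with no test. Of 184 genes 165 have the same start and end in GENCODE M21. Protein sequences were not analysed here.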

Additional observations from a re-analysis of the deposited data

How the results depend on the processing

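The counts and medians were recomputed with a pseudocount of 0.1, no filter, a minimum mean of 10, TMM, CPM and quantile scaling, edgeR, DESeq2, all 9 libraries in 1 fit, a replicate block, each library left out, a 2-fold threshold and windows of 100 and 500 kb, or with no neighbour allowed. Leaving out members with shared stretches or exon overlap was added after seeing the data. The sign of the members' median was the same in each comparison under all of these. Under CPM scaling there were 6 higher and 115 lower members with LPS (median -1.15), a median of 0.72 with NCT503 added, and 13 higher and 73 lower in the third comparison (median -0.57). With at least a 2-fold change 55 members were called with LPS (10 higher, 45 lower) and 44 in the third comparison (16 higher, 28 lower). With NCT503 added, the median was 0.38 at a minimum mean of 10 and 0.33 under quantile normalization. In the third comparison it was -0.23 under quantile normalization and -0.057 for members with no neighbour. The cause was not tested.

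With each library left out in turn, called members ranged from 57 to 94 with LPS (higher 13 to 22, lower 44 to 72, median -0.64 to -0.45). With NCT503 added they ranged from 38 to 79 (higher 22 to 52, lower 15 to 28, median 0.43 to 0.57). In the third comparison they ranged from 48 to 88 (higher 20 to 36, lower 28 to 52, median -0.26 to -0.085). Shares over all genes with a library left out are not given here, so these counts show only how the calls moved.

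With the replicate number as a block, 24 members were higher and 76 lower with LPS, 60 higher and 29 lower with NCT503 added, and 31 higher and 44 lower in the third comparison. Shares over all genes with the block are not given here either. Libraries with the same number had correlations of their deviations from the group means of -0.10 to 0.37 (LPS and LPS with NCT503), -0.03 to 0.19 (control and LPS) and -0.23 to 0.05 (control and LPS with NCT503). In 6 of 18 cases a library correlated best with its own number, and the numbers were not used as pairs. That count pools the 3 pairs of groups and does not settle pairing within one. Between LPS and LPS with NCT503 the first (0.37) and second (0.32) libraries correlated best with their own number, and the third (-0.10) did not.

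For single named genes 134 results gave 2130 alternative values. Of these 1952 were on the same side of the threshold with the same sign. With the sign kept, 94 lost the call and 42 gained one. The other 42 changed sign, and some of these also lost or gained a call. The gains listed next are those with the sign kept. With LPS calls were gained under CPM scaling for Zfp326, Zfp346, Zfp385a, Zfp451, Zfp462, Zfp622, Zfp830 and Zfp91, all lower (-1.18 to -0.76), under quantile normalization for Zfp385a (-0.96), Zfp622 (-0.80) and Zfp91 (-0.69), under TMM scaling and with edgeR for Zfp346 (-0.55 and -0.50), with DESeq2, a minimum mean of 10 or a pseudocount of 0.1 for Zfp609 (0.38 to 0.39), with the block for Zfp326, Zfp598 and Zfp609, and without the first LPS library for Zfp326, Zfp609 and Zfp687. With NCT503 added they were gained under CPM scaling for Zfp395, Zfp451, Zfp503 and Zfp622 (0.62 to 0.91), under quantile normalization and with edgeR for Zfp622 (0.66 and 0.54), with DESeq2 and in 1 fit of all libraries for Zfp513 (-0.53 and -0.51), with the block for Zfp395, Zfp451, Zfp513, Zfp518a and Zfp622, without the first LPS library for Zfp451, Zfp513 and Zfp518a, and without the second library with NCT503 for these 3 and Zfp219. Signs changed with LPS under CPM scaling for Zfp143 (-0.35), Zfp217 (-0.20), Zfp330 (-0.70), Zfp335 (-0.032), Zfp341 (-0.066), Zfp384 (-0.22), Zfp410 (-0.45), Zfp516 (-0.41), Zfp532 (-0.44), Zfp592 (-0.25), Zfp598 (-0.32), Zfp609 (-0.32), Zfp687 (-0.35) and Zfp710 (-0.16). Of these, Zfp330 (limma adjusted p = 0.0224) and Zfp516 (0.00886) were called lower under CPM scaling, though not in the main fit. Under quantile normalization signs changed for Zfp217 (-0.0034), Zfp516 (-0.31), Zfp710 (-0.27) and Zfp830 (0.076), and Zfp516 was called lower there (limma adjusted p = 0.0475). Zfp330, with a main value near 0, also changed sign under TMM scaling (-0.10), in 1 fit of all libraries (-0.0014) and with edgeR (-0.032). With a library left out, values with LPS ranged from -0.14 to 0.10 for Zfp330, -0.95 to 0.17 for Zfp521, -0.084 to 0.47 for Zfp532 and -0.11 to 0.010 for Zfp830. With NCT503 added, signs changed under CPM scaling for Zfp384 (0.20), Zfp706 (0.041) and Zfp830 (0.069) and under quantile normalization for Zfp326 (-0.020), Zfp346 (-0.11), Zfp384 (0.10) and Zfp593 (-0.18). With a library left out, values with NCT503 added ranged from -0.043 to 0.34 for Zfp326, -0.10 to 0.18 for Zfp346, -0.080 to 0.017 for Zfp384, -0.31 to 0.59 for Zfp593 and -0.083 to 0.48 for Zfp598.

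Genes with few reads limit what can be seen: 12, 11 and 8 of the 184 genes were not tested in the 3 comparisons.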
